A study of Rattus norvegicus with 12 samples.

Results

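The course of the diabetic rat wound under an alginate dressing (Alg) was followed in 3 libraries, 1 each from day 3, 7, and 14 after wounding, of the 12 libraries in the series. They were picked out by the treatment and day in their labels and by no measured value, though earlier results of these data were known. Of 25620 genes in the count table, 12790 had at least 50 reads in the highest of the 3 Alg libraries and were followed over the days. The wounds were full-thickness punch wounds on the shaved back of male SD rats made diabetic with streptozotocin, a toxin of the insulin-producing beta cell. Alg, a commercial dressing, was the positive control of the study, and the other 3 groups received saline (control), the dried mucus gel of the snail *A. fulica* (d-SMG), or the sulfated glycosaminoglycan of that gel (s-GAG). All 4 groups shared the diabetes, the wound, and the days. The labels give the tissue as skin and do not tie a library to an animal. With 1 library a day, a difference between days has no replicate check, and the intervals below cover the counting error only.

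A skin wound first fills with neutrophils and macrophages, then with granulation tissue of fibroblasts and new vessels, while keratinocytes migrate from the edge and later stratify into spinous, granular, and cornified layers. The skin of the rat lies on a thin sheet of striated muscle, the panniculus carnosus, which a full-thickness wound cuts and which repairs itself from satellite cells. Hair follicles at the wound edge pass through growth, regression, and rest, and only the growing follicle makes the hair shaft and the inner root sheath around it. Diabetic wounds are known for slow closure and long inflammation, and alginate, a polysaccharide of brown algae, forms a moist gel with the exudate.

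Sequencing of Alg gave 18613866 assigned reads on day 3, 15664603 on day 7, and 14780071 on day 14, within the range of all 12 libraries from 13748887 to 38302461. The labelled tissue was borne out by keratins and collagens in each Alg library. Krt14, a keratin of the basal layer, stood at 3518, 5098, and 5272 FPKM (fragments scaled to gene length and library size) on day 3, 7, and 14, and Col1a1, the main collagen chain of the dermis, at 491, 530, and 681 FPKM. The 37 genes of the skeletal muscle list took 5.96%, 17.6%, and 1.67% of the Alg reads on the 3 days, against 0.906% to 22.2% in the other 9 libraries. The d-SMG library of day 3 stood apart with the highest muscle share of the series and with a sum of 13.2 RPM (reads scaled to a common library size) over the suprabasal list, which lay between 634 and 6880 in the other libraries. It enters the scaling, which was computed over all 12 libraries, and the comparison and test against the other groups at the end.

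Over the 3 Alg libraries, 825 of 12790 genes (6.45%) differed by 4-fold or more between their highest and lowest day. Reads were scaled by TMM (trimmed mean of M values), and counts under 3 were set to 3. Between day 3 and 7, 155 genes were at least 4-fold higher (1.21%) and 131 at least 4-fold lower (1.02%). Between day 7 and 14 the numbers were 282 higher (2.2%) and 400 lower (3.13%), and between day 3 and 14 they were 178 higher (1.39%) and 191 lower (1.49%). The median log2 difference of all genes followed was -0.08 for day 7 against day 3, 0.10 for day 14 against day 7, and 0.02 for day 14 against day 3. By the order of the days, 83 genes fell from day to day (0.649%) and 87 rose from day to day (0.68%). A further 125 genes peaked, standing at least 4-fold higher on day 7 than on both other days (0.977%), and 91 dipped, standing at least 4-fold lower on day 7 than on both other days (0.711%). The remaining genes past 4-fold were highest on day 7 with the threshold met on 1 side only (263 genes, 2.06%) or lowest on day 7 with 1 side (176 genes, 1.38%). Most genes past 4-fold therefore had their highest or lowest level on day 7. Most of the possible orders of 3 days place day 7 highest or lowest, so this majority is in part built in. Just inside the threshold lay Cd300c2, with 140, 56, and 236 reads and a log2 range of 2.0025, and just outside it lay Ctla2a, with 324, 110, and 461 reads and a range of 1.9945.

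**Figure D1:**
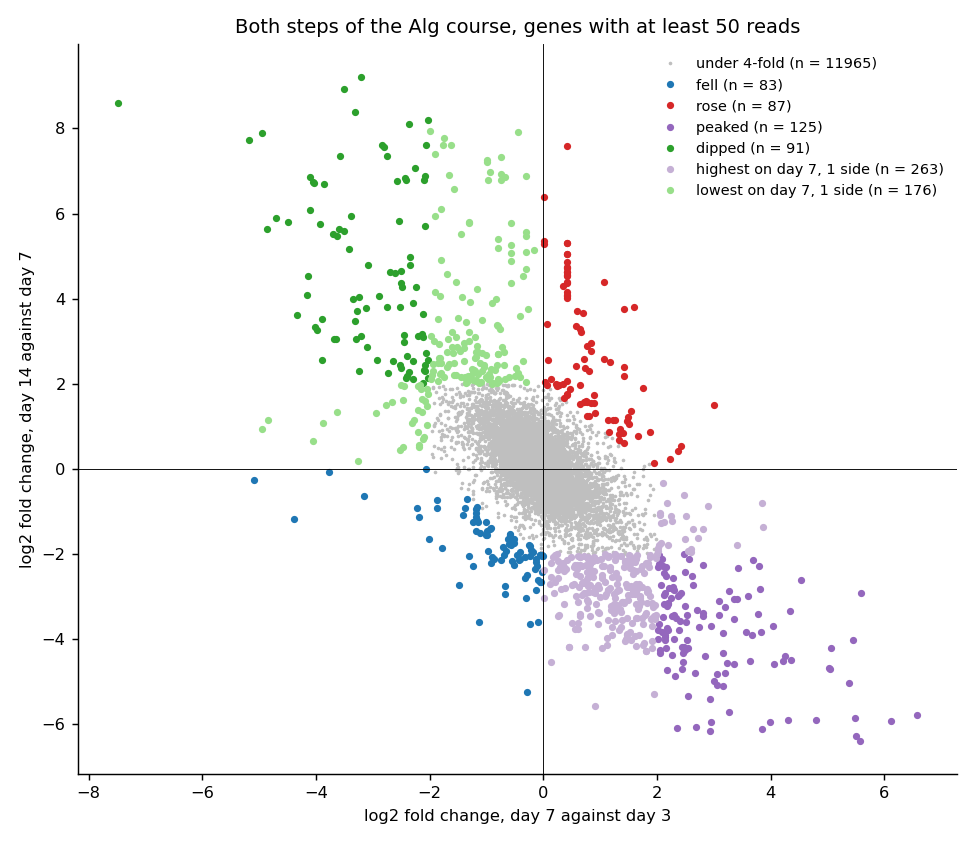
Each point is 1 of 12790 genes, with the log2 fold change of day 7 against day 3 on the x axis and of day 14 against day 7 on the y axis. The 4 courses occupy the 4 corners, with 125 peaking genes at the lower right and 91 dipping genes at the upper left. Both axes share the day 7 library, so that their downward slope is in part built in.

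Skeletal muscle genes were highest on day 7. All 37 members of the list were past 4-fold, 14 of them as peaking genes and 23 with 1 side. Of the 125 peaking genes, 15 belonged to the muscle lists and 108 to no list. The list's median log2 difference was 1.82 for day 7 against day 3 and -3.79 for day 14 against day 7, when all 37 members were at least 4-fold lower. The list also ended below its start, with a median of -1.95 for day 14 against day 3. Of the 37 members, 35 were lower on day 14 than on day 3, 18 of them at least 4-fold. In bulk tissue, fewer cells of a type and less RNA per cell cannot be told apart. The highest folds among the named peaking genes were those of Myh7 and Myl3. Myh7, the slow and cardiac myosin heavy chain, had 342, 24462, and 470 reads on day 3, 7, and 14. It was 96.1-fold higher on day 7 than on day 3 (95% counting interval of the log2 fold, 6.43 to 6.74) and 54.7-fold lower on day 14 than on day 7. Myl3, the slow myosin light chain that pairs with it, had 10, 516, and 9 reads and was 69.3-fold higher on day 7 than on day 3 (log2 interval 5.22 to 7.18). Both genes thus stood high in the day 7 library alone and returned near their day 3 level. Tnnt1, slow troponin T, had 997, 6634, and 478 reads, whereas the slow troponin I gene Tnni1 had 755, 678, and 66 and stood 1.21-fold higher on day 7 than on day 3 after scaling.

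The fast myosin Myh4 was far more abundant per length than Myh7, and its fold was smaller. Myh4, the fast 2B myosin heavy chain, stood at 3044, 12354, and 1054 FPKM, against 2.71, 233, and 4.85 FPKM for Myh7. The reads of Myh4 (381146, 1286964, and 101380) gave a 4.53-fold higher level on day 7 than on day 3 and a 13.4-fold lower level on day 14. Near-identical myosin genes can share reads, and how such reads were assigned was not given in the sources used here. Other peaking genes with functions in the fibre were Aqp4, the water channel of the fast-fibre membrane (24, 814, and 11 reads), Ky, a protein of the Z-disc named for kyphoscoliosis (22, 458, and 8 reads), and Fsd2 (42, 584, and 27 reads). Ddit4l, an inhibitor of mTOR signalling in muscle, had 17, 552, and 36 reads, and the phospholipase C gene Plcd4 had 53, 660, and 29. C1qtnf3, a secreted protein of the C1q and TNF family, had 18, 276, and 13 reads. All of these 8 genes with the largest peaks were at least 16.1-fold lower on day 14 than on day 7.

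The promoters of the muscle genes are shown because these genes moved together and share a known regulator, the MEF2 family of transcription factors. The letters searched for were CTA, any 4 bases, and TAG. This is looser than the MEF2 core, in which those 4 bases are A or T. RefSeq (GRCr8, 250 bases before to 50 after the start) held a promoter sequence for 33 list members. Of these, 4 held the letters on either strand (12.1%), namely Myl1, Myoz3, Ttn, and Ckmt2. The 4 inner bases were A or T alone in Myl1 and Ttn and included G in Ckmt2 and Myoz3. They were found in 12 of 109 promoters of the peaking genes (11%) and in 1284 of 33469 promoters overall (3.84%). The share was not particular to muscle, as 4 of 29 promoters of the suprabasal list held the letters (13.8%). In the muscle regeneration list 0 of 14 did. A match is a description of the letters and not a bound site. The promoters of Myl1, a fast myosin light chain with 20978, 45043, and 3347 reads, and of Ttn (titin), the spring of the sarcomere with 36782, 67082, and 7685 reads, follow with the core in capitals.
Myl1, chr9:75897750-75898049, GRCr8, minus strand: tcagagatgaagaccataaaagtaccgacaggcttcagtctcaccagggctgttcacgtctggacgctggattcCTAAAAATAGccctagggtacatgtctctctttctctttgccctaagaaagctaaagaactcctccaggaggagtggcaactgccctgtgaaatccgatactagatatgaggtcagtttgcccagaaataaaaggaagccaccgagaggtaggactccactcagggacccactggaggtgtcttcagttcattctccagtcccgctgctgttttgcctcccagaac
Ttn, chr3:82332061-82332360, GRCr8, minus strand: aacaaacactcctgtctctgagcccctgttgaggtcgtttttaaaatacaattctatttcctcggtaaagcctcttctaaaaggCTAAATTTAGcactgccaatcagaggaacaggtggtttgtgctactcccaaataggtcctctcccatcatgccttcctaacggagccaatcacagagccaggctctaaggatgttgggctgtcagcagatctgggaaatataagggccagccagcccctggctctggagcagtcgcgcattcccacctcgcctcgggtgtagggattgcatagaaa

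Genes of new and denervated muscle fibres were likewise lower on day 14 than on day 3. In the muscle regeneration list, 7 of 13 members followed fell, 12 were past 4-fold, and all 13 were lower on day 14 than on day 3, with a median log2 difference of -3.20. Myog, the transcription factor that commits myoblasts to differentiate, had 3220, 594, and 200 reads on day 3, 7, and 14 and was 12.6-fold lower on day 14 than on day 3 (log2 interval -3.87 to -3.45). Mymx, a small membrane protein needed for myoblast fusion, had 170, 58, and 5 reads and was 26.6-fold lower. Chrnd, the delta subunit of the muscle acetylcholine receptor, had 257, 155, and 20 reads, and its alpha subunit Chrna1 had 181, 127, and 11. Between day 3 and 7 the list was split, with 8 members lower, 5 higher, and a median log2 difference of -0.30. Myog was clearly lower on day 7 (-2.01), whereas Chrnd differed little after scaling (-0.30). All 37 members of the skeletal muscle list were higher on day 7 than on day 3. Myod1, which acts upstream of Myog, did not decline by day 7, with 166, 181, and 14 reads. The perinatal myosin Myh8 peaked like the adult myosins (1475, 8537, and 146 reads), and the embryonic myosin Myh3 had 8738, 6577, and 849 reads.

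Several of the largest falls outside that list were in genes of striated muscle as well. Igfn1, a protein of the Z-disc, had 7564, 4775, and 403 reads and was 14.7-fold lower on day 14 than on day 3. Ankrd1, a stress-responsive ankyrin-repeat protein of striated muscle, had 19104, 3134, and 1501 reads and a 9.97-fold decrease. Mybph, a myosin-binding protein of the thick filament, had 2228, 1046, and 144 reads, Ppp1r27 909, 196, and 57, and the fucosyltransferase gene Sec1 795, 370, and 58. Of the 83 falling genes, 73 belonged to no list, and 75 were protein coding.

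Genes of the Schwann cell, the glial cell that ensheathes peripheral axons, declined over the same days. All 10 members followed were lower on day 14 than on day 3, with a median log2 difference of -1.62, and 3 of them fell past 4-fold. Mal had 132, 52, and 21 reads, and Sox10, the lineage factor of Schwann cells, had 80, 59, and 15.

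**Figure D2:**
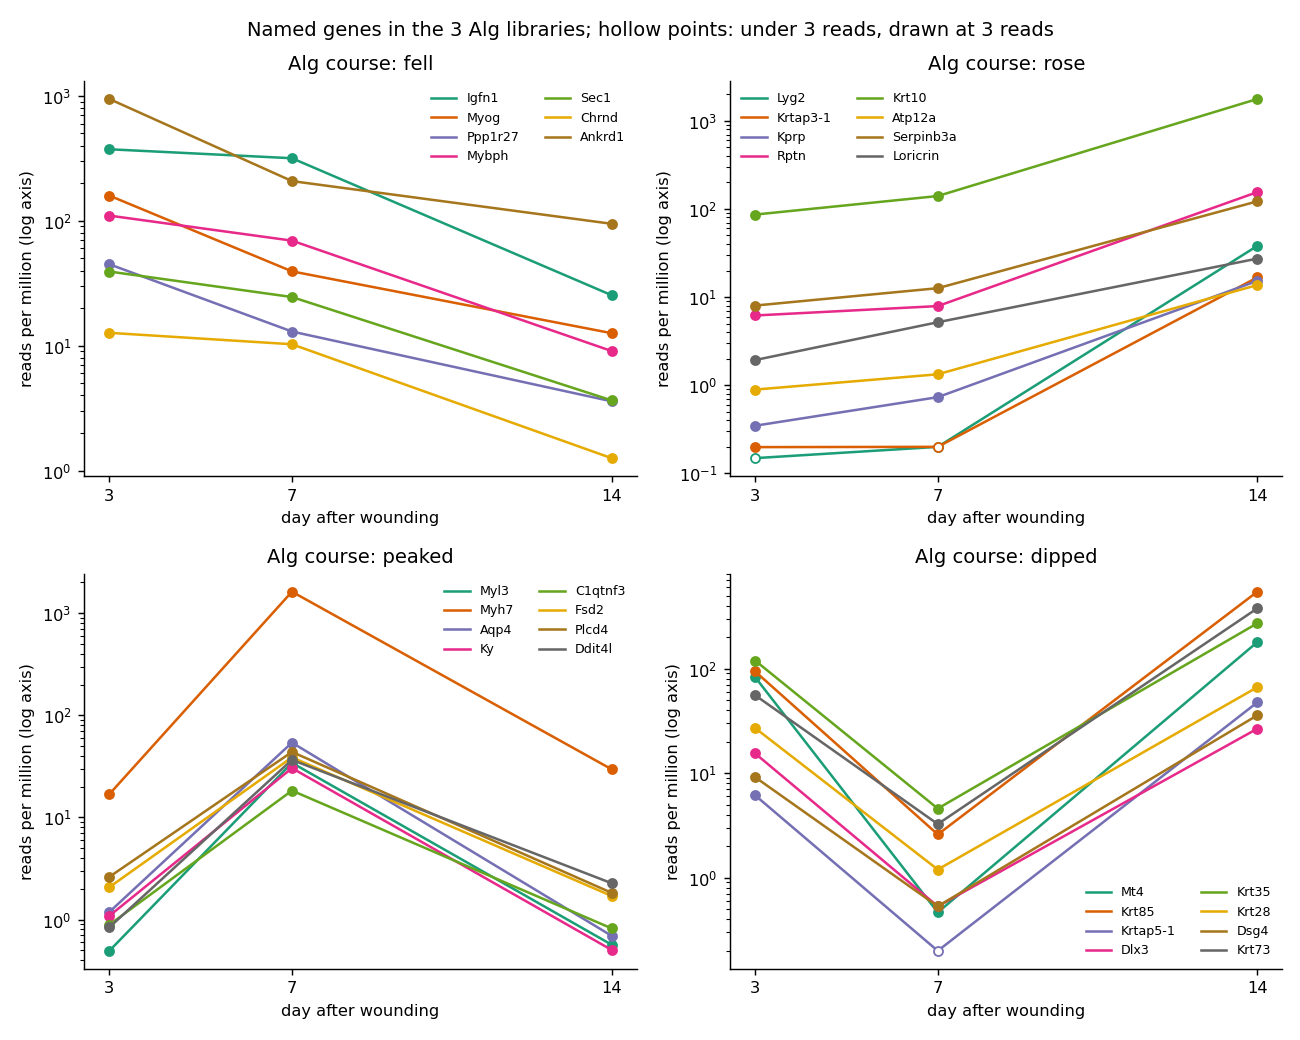
Scaled reads as RPM (log axis) on day 3, 7, and 14 in Alg, for the named genes of each course, 7 that fell and 8 in each of the other courses. Hollow points hold under 3 reads and are drawn at 3 reads, and each point is 1 library. Myh7 rises from 16.9 to 1622 and returns to 29.6, while the dipping gene Krt85 goes from 93.9 to 2.59 and then to 544.

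Hair follicle genes were lowest on day 7 and made up 25 of the 91 dipping genes, of which 58 belonged to no list. All 27 hair shaft genes followed were past 4-fold, 12 of them dipped, 13 were lowest on day 7 with 1 side, and 2 rose. The median log2 difference of the list was -1.77 for day 7 against day 3 and 6.94 for day 14 against day 7, and 24 of the 27 ended at least 4-fold higher on day 14 than on day 3. Krt85, a hair keratin of the matrix and early cortex, had 1902, 39, and 8638 reads on day 3, 7, and 14. It was 36.3-fold lower on day 7 than on day 3 (log2 interval -5.68 to -4.73) and then 211-fold higher on day 14 than on day 7. Krt35, which pairs with it, had 2416, 69, and 4308 reads. Both keratins were thus well counted on day 3, scarce on day 7, and abundant on day 14. Krt34, a keratin of the late cortex, had 42, 23, and 5829 reads, and Krtap17-1, a keratin-associated protein of the cuticle, 37, 3, and 1862. Krtap3-1, another keratin-associated protein, had 4, 2, and 265 reads and is counted as rising only because counts under 3 were set to 3. Hair keratins and keratin-associated proteins form families of similar genes, and reads shared between members could not be separated here.

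The inner root sheath, which moulds the growing shaft, followed the same course. Of 11 genes followed, 8 dipped, and the median log2 difference was -2.58 for day 7 against day 3 and 6.75 for day 14 against day 7. Tchh (trichohyalin), which hardens the sheath, had 39647, 4946, and 561676 reads and alone made up 3.80% of all reads on day 14. Its level was 5.97-fold lower on day 7 than on day 3 and 18.1-fold higher on day 14 than on day 3. The sheath keratin Krt71 had 8973, 1153, and 68770 reads, Krt25 7261, 474, and 23836, Krt73 1125, 49, and 5988, and Krt28 546, 18, and 1053. Gata3, a regulator of the sheath lineage that the epidermis also expresses, stood at 223, 190, and 195 reads, and Ctsl, a protease of many cell types, had 54460, 11106, and 26771, so that neither was past 4-fold.

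Regulators of the follicle were low on day 7 as well and ended nearer to their day 3 level. Of 18 followed, 16 were lower on day 7 than on day 3, 5 dipped, and none was 4-fold higher or lower on day 14 than on day 3, with a median log2 difference of 0.28 between these days. Dlx3, a homeobox factor of the differentiating hair matrix, had 312, 8, and 422 reads and was 29.0-fold lower on day 7 than on day 3. Lef1, which transmits Wnt signals in the hair matrix, had 946, 71, and 837 reads. Shh, the signal that drives follicle growth, had 173, 8, and 85 reads and did not regain its day 3 level. Its target genes Ptch1 (435, 111, and 270 reads) and Gli1 (432, 93, and 208 reads) were also lowest on day 7. The stem cell marker Lgr5 had 104, 43, and 61 reads, and Sox9, a factor of the outer root sheath and 1 of the 2 regulators higher on day 7 than on day 3, had 337, 512, and 423. Among dipping genes outside these lists, Mt4, a metallothionein of stratified epithelia, had 1675, 7, and 2846 reads and was 387-fold higher on day 14 than on day 7. Dsg4, the desmoglein of the hair cortex, had 185, 8, and 567 reads, and Krtap5-1 had 124, 2, and 754.

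**Figure D3:**
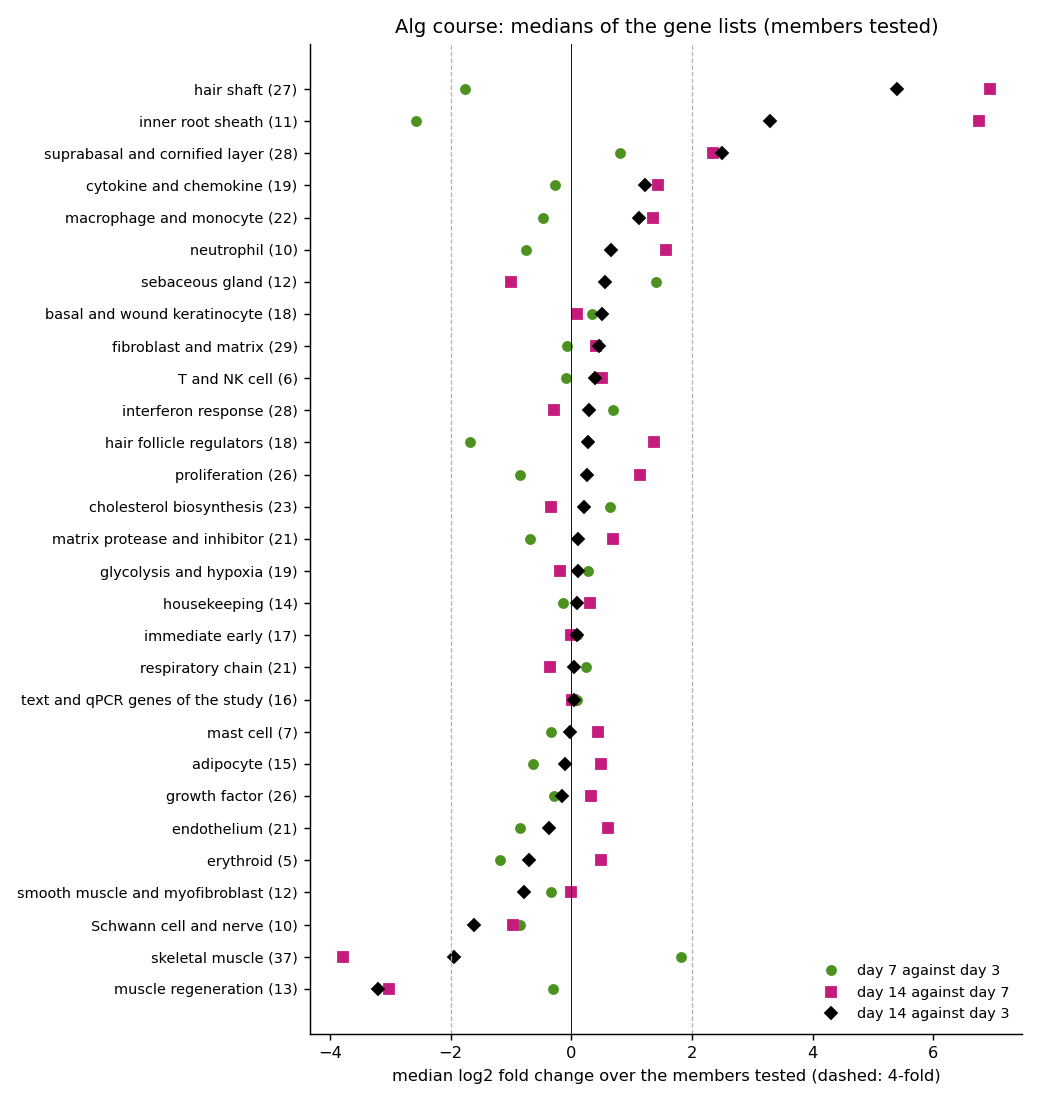
Median log2 fold change of each gene list in the Alg course (x axis) for the 3 pairs of days, with the number of members followed in brackets. The hair shaft and inner root sheath lie near 7 for day 14 against day 7, and skeletal muscle lies below -3 there but near 2 for day 7 against day 3.

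Genes of the differentiated epidermis rose over the course and were the list with the most rising genes. In the list of the suprabasal and cornified layers, 14 of 28 members followed rose and 27 were higher on day 14 than on day 3. The median log2 difference between these days was 2.5, and 17 members were at least 4-fold higher. Krt10, the type I keratin of the spinous layer, had 1749, 2114, and 28114 reads on day 3, 7, and 14 and was 20.5-fold higher on day 14 than on day 3 (log2 interval 4.29 to 4.43). Its partner Krt1 had 2238, 3515, and 22312 reads and was 12.7-fold higher. Loricrin, the main protein of the cornified envelope, had 39, 78, and 433 reads, and Casp14, the protease that processes filaggrin, had 55, 93, and 559. Thus the larger step came between day 7 and 14. Rptn and Kprp, proteins of the granular and cornified layers, had 125, 119, and 2466 reads and 7, 11, and 242 reads. After scaling, Rptn was 25.2-fold and Kprp 44.1-fold higher on day 14 than on day 3. Serpinb3a, a serpin of squamous epithelia, had 162, 190, and 1936 reads, and Atp12a, a proton and potassium pump, 18, 20, and 217. Ivl (involucrin), an early protein of the envelope, had 639, 194, and 3114 reads and was lowest on day 7, and Krt2 dipped, with 234, 20, and 289 reads.

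The basal layer and the migrating front varied less. In the list of basal and wound keratinocyte genes the median log2 difference between day 14 and day 3 was 0.50 over 18 genes, and 1 member was past 4-fold. Krt16, a keratin of activated keratinocytes, had 728, 1729, and 3102 reads and rose 5.44-fold. Its relative Krt6a had 1782, 2297, and 3708 reads, and Krt5, the partner of Krt14, had 44408, 50526, and 52587. Levels of the basal keratins thus stayed within a narrow range while those of the differentiated layers climbed.

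Lyg2, a lysozyme of the goose type, had the highest fold of the rising genes. It had 0 reads on day 3, 0 on day 7, and 604 on day 14, at least 257-fold higher than on day 3 when a level of 3 reads is taken for that library. In 21 of the 87 rising genes a library held under 3 reads. For the 18 of these with 3 or fewer reads on both early days, the step from day 3 to day 7 came from the scaling of the 3 reads alone. Fgf22, a keratinocyte growth factor that acts on the hair follicle, had 8, 9, and 123 reads and was the growth factor with the largest rise.

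**Figure D4:**
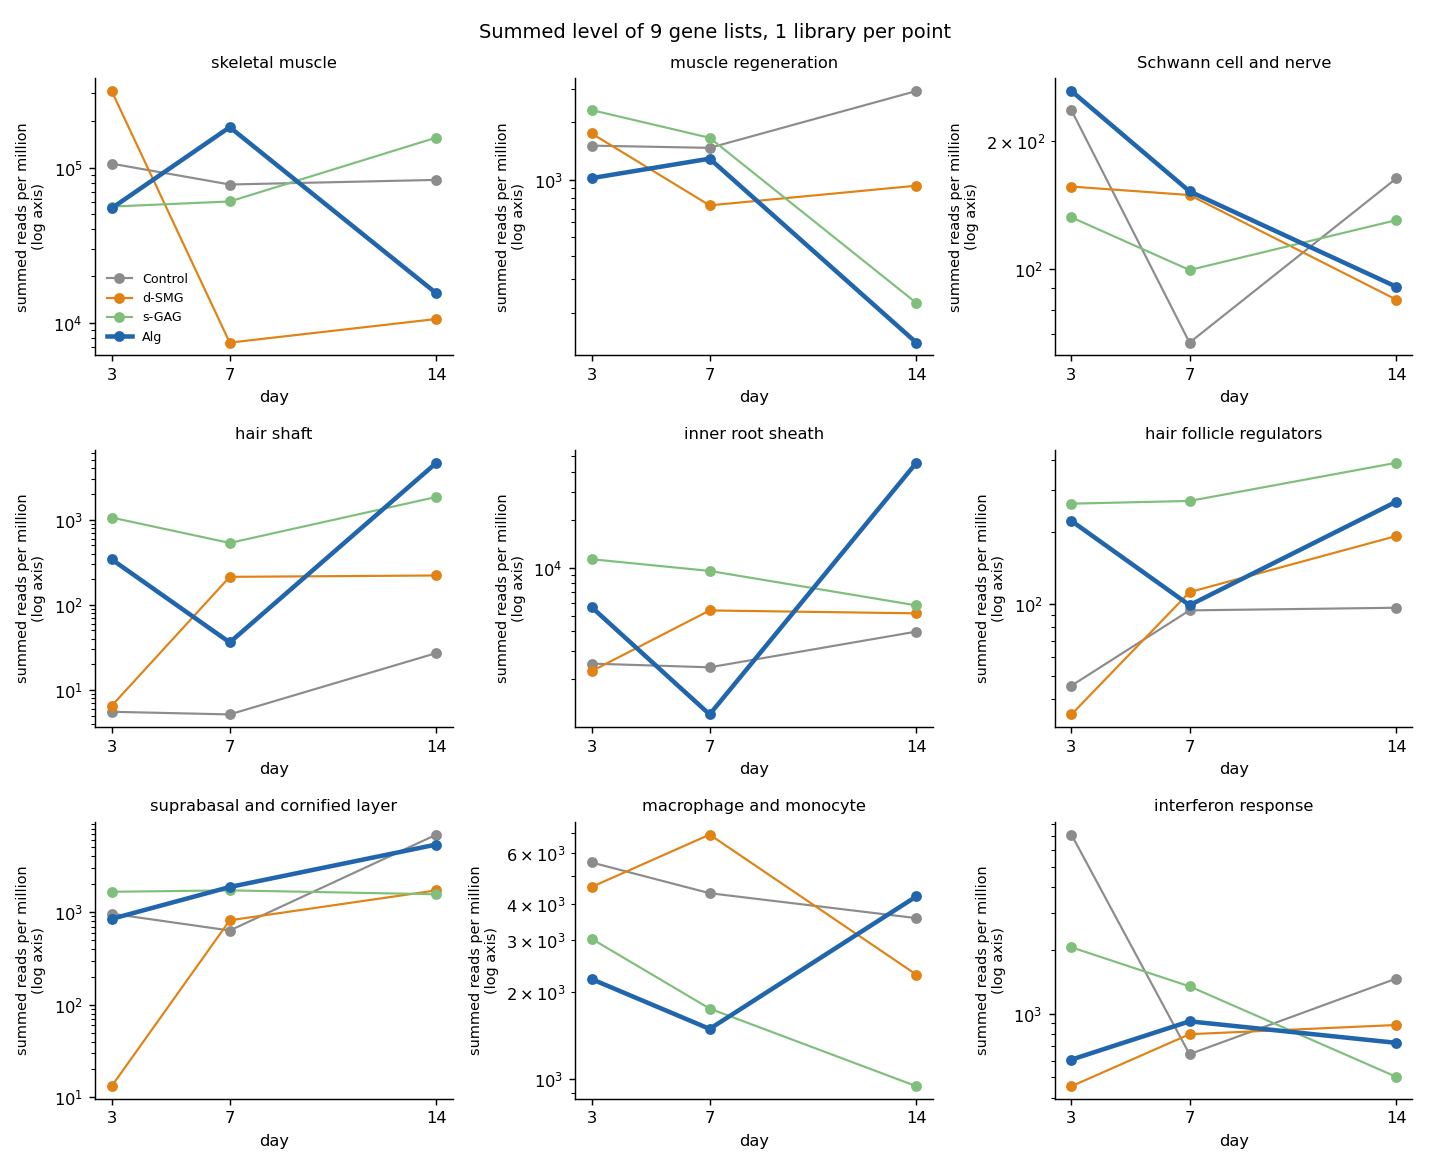
Summed scaled reads as RPM (log axis) of 9 gene lists on day 3, 7, and 14 in Alg (thick blue) and in the other 3 groups, 1 library per point. Alg has its highest muscle sum (182000 RPM) and its lowest hair shaft sum (36.1 RPM) on day 7. The hair shaft sum is also lowest on day 7 in s-GAG (533 RPM). In the control it is low and near equal on day 3 and 7 (5.53 and 5.15 RPM).

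Macrophage genes were lowest on day 7 and highest on day 14. Of 22 followed, 16 were lower on day 7 than on day 3 and 19 were higher on day 14 than on day 3, with median log2 differences of -0.47 and 1.11. Cd163, the haemoglobin scavenger receptor of resident macrophages, had 7101, 950, and 19352 reads on day 3, 7, and 14. It was 5.57-fold lower on day 7 than on day 3 (log2 interval -2.58 to -2.38) and 19.4-fold higher on day 14 than on day 7. Mrc1, the mannose receptor CD206, had 4052, 947, and 8226 reads, and the complement gene C1qa had 4307, 1791, and 9399. These 3 genes therefore shared the low point on day 7. Adgre1, which encodes F4/80, had 249, 292, and 1207 reads and was the 1 macrophage gene that rose. The pan-macrophage gene Cd68 had 588, 217, and 592 reads, while Spp1 (2200, 2902, and 1705 reads) and Trem2 (298, 142, and 106 reads), genes of lipid-laden and wound macrophages, were not highest on day 14. Cd38, an ectoenzyme of activated myeloid cells, had 279, 75, and 541 reads.

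Cytokine and neutrophil genes were also mostly highest on day 14. Of 19 cytokine and chemokine genes followed, 14 were higher on day 14 than on day 3, 4 rose past 4-fold, and the median log2 difference was 1.22. Il1b, the inflammasome-dependent cytokine, had 133, 128, and 424 reads and was 4.07-fold higher on day 14 than on day 3 (log2 interval 1.74 to 2.32). Il1a, its partner released by keratinocytes, had 1, 18, and 54 reads, and because of the single read on day 3 its 69.0-fold ratio has a log2 interval of 3.57 to 11.44. With that count set to 3, as in the classing of the courses, the log2 difference was 4.52. Ccl20, which attracts cells that bear CCR6, had 9, 10, and 56 reads, and the neutrophil chemokine Cxcl3 had 39, 37, and 155. Il6 dipped, with 26, 1, and 78 reads. All 10 neutrophil genes followed were higher on day 14 than on day 3, with a median log2 difference of 0.65. Lcn2 (lipocalin), which keratinocytes also make, had 345, 121, and 1439 reads, and S100a8 and S100a9, the subunits of calprotectin, had 510, 269, and 612 reads and 1426, 668, and 1748 reads. The granule genes that define neutrophils in marrow were at or near 0, with 8, 2, and 3 reads for Mpo, 1, 0, and 0 for Elane, and 0, 1, and 0 for Camp. Of the 22 neutrophil genes 3 had 0 reads in all Alg libraries.

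Interferon response genes followed another order, as 25 of 28 were higher on day 7 than on day 3, with a median log2 difference of 0.69. Mx2, an antiviral GTPase, had 776, 2576, and 551 reads and was 4.46-fold higher on day 7 than on day 3. Isg15, a ubiquitin-like protein induced by interferon, had 211, 526, and 203 reads, and Rsad2 (viperin) 24, 101, and 34. The core of the interferon-stimulated response element, which reads GAAA, any 2 bases, and GAAA on either strand, was held by 14 of 20 promoters of the list (70%) and by 1312 of 33469 promoters overall (3.92%), but only 4 members were past 4-fold. T and NK cell genes had a median log2 difference of 0.39 between day 14 and day 3 over 6 genes. For day 7 against day 3 their median was -0.09, with members from -2.08 to 0.47. Cd8a dipped, with 153, 27, and 155 reads. None of 10 B and plasma cell genes reached 50 reads, and the median of 7 mast cell genes was -0.02 for day 14 against day 3.

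Vessel and cell cycle genes shared a low point on day 7 that stayed mostly under 4-fold. Of 21 endothelial genes, 20 were lower on day 7 than on day 3 (median log2 difference -0.85), and 17 were lower on day 14 than on day 3. Apln and Esm1, genes of sprouting tip cells, had 260, 44, and 144 reads and 216, 38, and 120 reads. Of 26 proliferation genes, 25 were lower on day 7 than on day 3 (median -0.85) and 25 were higher on day 14 than on day 7 (median 1.14). Top2a, which untangles DNA in dividing cells, had 5014, 1794, and 5509 reads, and Mki67 had 6607, 2746, and 6062. Neither list had a member past 4-fold in a day-by-day fall or rise.

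Sebaceous gland genes ran against the follicle, with all 12 higher on day 7 than on day 3 (median log2 difference 1.41) and 11 lower on day 14 than on day 7. Elovl3, an elongase for the fatty acids of sebum, had 785, 1901, and 754 reads, and Mc5r, the melanocortin receptor of the gland, had 40, 186, and 74. Adipocyte genes were split, as Cfd (adipsin) dipped with 4394, 667, and 4039 reads, while Gpd1, which skeletal muscle also expresses, had 399, 1070, and 243 reads. Their median was -0.11 for day 14 against day 3 over 15 genes. Aldoa and Bnip3 of the glycolysis and hypoxia list, both also abundant in muscle, were highest on day 7 (8574, 20478, and 3310 reads, and 1177, 2722, and 659 reads), and the median of the list was 0.27 for day 7 against day 3 and 0.11 for day 14 against day 3. Cholesterol biosynthesis genes had a median of 0.64 for day 7 against day 3, when 17 of 23 were higher, and of 0.21 for day 14 against day 3.

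Matrix genes stayed under 4-fold. None of 29 fibroblast and matrix genes was past 4-fold, against 6.45% of all genes followed, a share at which few of 29 would be. The median log2 difference between day 14 and day 3 was 0.45. Single members ranged from -1.67 to 1.79 for day 7 against day 3. Col3a1, a collagen of early granulation tissue, had 82464, 73741, and 120818 reads, and Dcn (decorin), which binds collagen fibrils, had 14031, 5633, and 20926. Of the proteases, Mmp3 (stromelysin) dipped with 2715, 372, and 3112 reads, and Mmp12, the elastase of macrophages, had 67, 303, and 87, while the median of 21 proteases and inhibitors was 0.12 for day 14 against day 3. The corresponding medians were -0.78 over 12 smooth muscle and myofibroblast genes, which include Des, a gene of skeletal muscle too (56094, 53945, and 11436 reads), -0.16 over 26 growth factors, 0.05 over 21 genes of the respiratory chain, 0.10 over 17 immediate early genes, -0.70 over 5 erythroid genes, and 0.10 over 14 housekeeping genes. The share of muscle reads was highest on day 7, the day on which the follicle, macrophage, vessel, and cell cycle lists were lowest, and its part in these differences was not tested. When the muscle list was left out of the scaling, 824 genes were past 4-fold. That setting changes the scaling factors only and does not address how much muscle each tissue sample held.

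Of the 21 genes that the study discusses or measured by qPCR, a list it chose on these samples, 16 had enough reads, 3 were past 4-fold, and the median log2 difference between day 14 and day 3 was 0.04. These 3 were Il1b, Cd163, and Mrc1, given above. Nos2, the inducible nitric oxide synthase of inflammatory macrophages, had 39, 32, and 107 reads, and Arg1 (arginase) had 161, 175, and 342. Vegfa, the vessel growth factor, had 3604, 2049, and 1703 reads, and Tgfb1 had 180, 114, and 115. Tnf had 17, 7, and 18 reads and Il10 4, 9, and 8, too few to follow.

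The same genes were read in the other 3 groups, which share the days but not the libraries. Falling and rising genes were compared by day 14 against day 3 alone, whatever their day 7 value. Of the 83 genes that fell in Alg, 49 were at least 4-fold lower in d-SMG (59%), 9 in the control (10.8%), and 12 in s-GAG (14.5%). Over all 12790 genes the shares were 5.75%, 1.5%, and 10.6%, so that the share in s-GAG lay near its background. Of the 87 that rose, 41 were at least 4-fold higher in d-SMG (47.1%), 36 in the control (41.4%), and 4 in s-GAG (4.6%), against 7.84%, 2.73%, and 3.98% of all genes. The d-SMG values rest on the day 3 library that stood apart. Peaks and dips had to pass 4-fold on both sides of day 7. Of the 125 peaking genes, 7 peaked in the control (5.6%), 5 in d-SMG (4%), and 0 in s-GAG, against 0.618%, 0.36%, and 0.219% of all genes. Of the 91 dipping genes, 5 dipped in the control (5.49%), 1 in d-SMG (1.1%), and 1 in s-GAG (1.1%), against 0.547%, 0.156%, and 0.172% of all genes. At any size, 50 of the 91 were lowest on day 7 in s-GAG (54.9%), 25 in the control (27.5%), and 9 in d-SMG (9.89%). The share of all genes lowest on day 7 in these groups was not counted, so these values show no excess. Across the 12790 genes, the log2 differences of day 14 against day 3 in Alg had a Pearson correlation of 0.42 with those in d-SMG, 0.24 with the control, and -0.21 with s-GAG. For day 7 against day 3 the values were -0.23, -0.02, and -0.02. These describe 2 libraries in each group, and genes are not independent replicates.

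**Figure D5:**
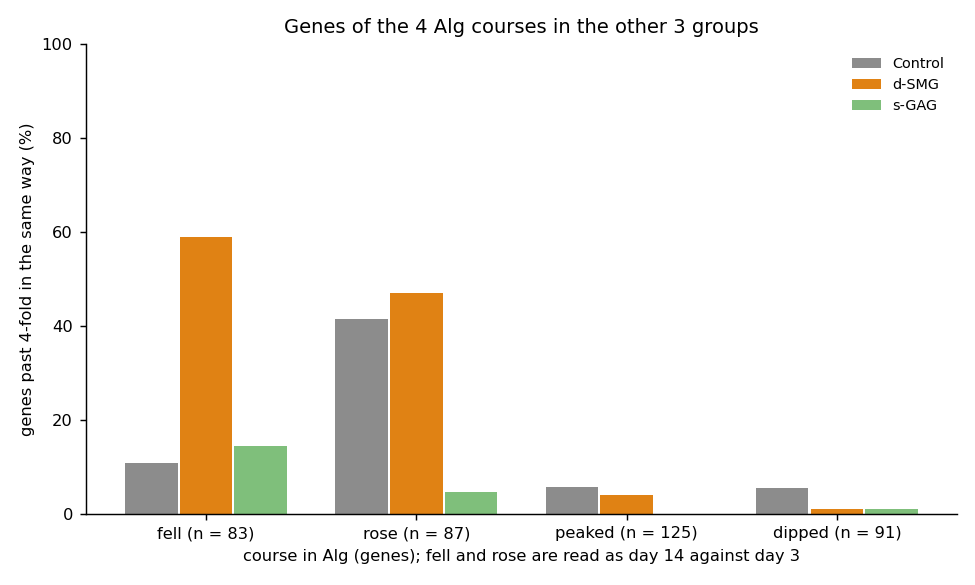
For the genes of each Alg course (x axis, number of genes in brackets), the bars give the percentage past 4-fold in the same way in the control, d-SMG, and s-GAG groups, which for falling and rising genes is day 14 against day 3 and for the others both sides of day 7. The bars reach 59% for falling genes in d-SMG and 47.1% for rising genes in d-SMG and stay at or below 5.6% for peaking and dipping genes.

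Single genes took these values in the other groups. Myh7 had 3317, 63, and 397 reads in the control, 265, 15, and 27 in d-SMG, and 6928, 5929, and 15063 in s-GAG, so that its lowest day in each of these groups was day 7, after scaling. Krt85 had 1, 8, and 101 reads in the control, 3, 660, and 885 in d-SMG, and 3684, 4689, and 4371 in s-GAG. The early hair keratin was therefore scarce on day 3 in 2 groups and abundant on each day in s-GAG. Krt10 had 5491, 382, and 47782 reads in the control, highest on day 14 as in Alg, and 2575, 4182, and 1868 in s-GAG. Cd163 stood at 351, 63.0, and 1220 RPM in Alg, at 329, 307, and 653 in the control, at 418, 1009, and 160.1 in d-SMG, and at 217, 278, and 25.5 in s-GAG. It was lowest on day 7 in Alg and the control. The macrophage list had a median log2 difference for day 7 against day 3 of -0.47 in Alg, -0.07 in the control, 0.98 in d-SMG, and -0.64 in s-GAG. For day 14 against day 3 it was 1.11 in Alg, -0.74 in the control, -0.37 in d-SMG, and -1.26 in s-GAG. A positive list median for day 14 against day 3 was thus seen in Alg alone, although Cd163 was also higher on day 14 in the control. Summed over the list, the level on day 3 and 14 was 2210 and 4250 RPM in Alg and 5560 and 3580 in the control. It was 4580 and 2290 RPM in d-SMG and 3040 and 947 RPM in s-GAG. Median log2 differences of the muscle list for day 7 against day 3 were 1.82 in Alg, -0.53 in the control, -5.31 in d-SMG, and -0.48 in s-GAG.

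Whether the Alg course differed from the other 3 courses was tested by the quasi-likelihood F test of edgeR over all 12 libraries, with 4 residual degrees of freedom that come from the differences between the control, d-SMG, and s-GAG courses. Of 16809 genes 0 were called at an FDR of 0.05 (0%), 263 had an unadjusted p under 0.05, where 840 would be expected, and the lowest FDR was 1. The biological coefficient of variation between the courses was 0.513. The likelihood ratio test of DESeq2 called 4 genes, Myh7, Myl3, Cd38, and LOC108349671, the last with a provisional name, and 527 genes had an unadjusted p under 0.05. By edgeR the lowest unadjusted p were 0.00116 for Myh7, 0.00162 for Cd38, and 0.00258 for Trem1, each with an adjusted p of 1. Trem1, a receptor of neutrophils and monocytes, had 7, 2, and 19 reads in Alg. The test of edgeR thus did not set the Alg course apart from the spread between the other groups, which held 1 library a day each.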

How the data were processed

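RNA-seq used rRNA-depleted, strand-specific libraries with 150-base paired ends. The authors deposited read counts of 25620 genes as whole numbers without normalization, and FPKM of 25524 genes, scaled by the authors to gene length and mapped fragments. The submitters' processing notes name bcl2fastq, FastQC, TopHat2, and edgeR; the genome build, the annotation, and the counting tool are not given in the sources used here. Of the columns of each table, 1 matches no described sample and was not used.

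Counts were scaled by TMM over 12 libraries (edgeR 4.0.16, limma 3.58.1, R 4.3.3). Genes with at least 50 reads in the highest Alg library were classed by a 4-fold rule, with counts under 3 set to 3. With 1 library a day no test over the days was made. Intervals are exact Clopper-Pearson intervals at 95%, which cover counting error only. The Alg by day terms were tested with glmQLFTest after filterByExpr, with Benjamini-Hochberg adjustment. Lists (30, with 626 of 646 genes found) are described by counts and medians. Named genes, without provisional symbols, are the 8 with the largest fold per course with at least 200 reads, the 3 with the lowest p, up to 4 per list by range with at least 50 reads, members on which a statement about a list turns, and the genes of the study's text. Further list members named as examples, such as Lgr5, Sox9, Isg15, and Mki67, and the edge genes were chosen after their values were seen. Some genes that these rules pick are not reported here. The libraries, lists, and rules were chosen with earlier results of these data known. Of 25620 symbols, 21825 were found in RefSeq. Alternatives were other scalings, FPKM with a pseudocount of 1 or 0.1, other read minimums, a 2-fold threshold, DESeq2 1.42.0, and leaving out a group. The scripts were tested on simulated data. Plots used Python 3.11.15 with matplotlib 3.10.9.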

Additional observations from a re-analysis of the deposited data

How the results depend on the processing

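Signs were checked for the list medians and for the genes picked by the naming rules, under 6 alternative scalings, FPKM included. No fold past 4-fold among these genes and no list median past 1.5-fold changed its sign. The other genes past 4-fold were not checked for sign. The number of genes past 4-fold, 825 with TMM, was 841 with library sizes, 831 with RLE, 829 with TMM over the Alg libraries alone, 719 with FPKM and a pseudocount of 0.1, 1144 with at least 20 reads, and 571 where the counting interval lay past 4-fold. It moved by over 1.5 times with FPKM and a pseudocount of 1 (415, with 39 falling, 30 rising, 42 peaking, 39 dipping, and 121 highest on day 7 with 1 side), where low genes are pulled together by construction. With at least 200 reads it was 505 (55 falling, 33 rising, 59 dipping, 172 highest and 98 lowest on day 7 with 1 side). With no minimum it was 1387 (153 falling, 202 rising, 443 highest and 272 lowest on day 7 with 1 side), and with a 2-fold threshold 2806 (293, 319, 444, and 415 in the 4 courses, then 548 and 787). With at least 20 reads 139 genes fell and 147 rose. A pseudocount of 0.1 left 82 peaking genes. Counting intervals past 4-fold left 49 falling, 57 rising, 167 highest, and 99 lowest on day 7 with 1 side.

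The course test called 4 genes with DESeq2 and 0 in each other fit, and 0 to 0 when the control, d-SMG, or s-GAG course was left out. Library sizes moved the median of all genes by -0.18 for day 7 against day 3 and by 0.16 for day 14 against day 7, and FPKM with a pseudocount of 0.1 by -0.15 and 0.18. Over 6 alternatives, 511 list medians moved by less than 1.5 times and 11 by more. Signs turned only for medians close to 0, in the mast cell, fibroblast, smooth muscle, glycolysis, immediate early, and study lists. Of the single genes' folds, 513 moved past their counting interval and 2205 did not. No paired analysis was possible because each group and day has 1 library. Genes with few reads on a day are limited by counting, and animals, biopsies, and days cannot be told apart.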
